A study of Mus musculus with 17 samples.

Results

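Genes that mark the neurons and glia of the gut wall were followed in the mouse colon. They are 8 of the 37325 gene or transcript names on the array, of which 25029 were tested, and 6 are neuronal (Elavl4, Ret, Nos1, Vip, Uchl1 and Prph) and 2 are glial (S100b and Sox10). They were chosen by name with earlier results of these data known, and each is read by its probe with the highest mean in the authors' log2 table. All 8 passed the filter on dim probes, which asked for a signal well above background on at least 4 arrays. The arrays are of colons of C57BL/6J male mice with and without PXR, the nuclear receptor that senses drugs and other foreign compounds, after treatment with PCN, a steroid that activates mouse PXR. The 4 groups are WT CONT (WT mice given corn oil, n = 4), WT PCN (WT mice given PCN in corn oil, n = 4), Pxr-/- CONT (mice lacking Pxr in the whole body, given corn oil, n = 5) and Pxr-/- PCN (n = 4). PCN was injected into the peritoneum at 100 mg/kg daily for 4 days, and all mice were killed 6 h after the last injection. WT mice were bought at 6 weeks of age and acclimatized for 2 weeks, whereas the Pxr-/- line came from an in-house colony, so the effects of genotype and of origin cannot be told apart.

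The enteric nervous system is a mesh of neurons and glia that lies in 2 layers of the bowel wall, the myenteric plexus between the muscle coats and the submucosal plexus beneath the epithelium. It descends from neural crest cells that enter the gut and multiply under signals such as GDNF, which acts through the receptor tyrosine kinase RET. Excitatory neurons release acetylcholine and tachykinins, while inhibitory neurons release nitric oxide and vasoactive intestinal peptide and relax the muscle. Enteric glia surround the neurons, are set apart by the transcription factor SOX10 and the calcium-binding protein S100B, and can become reactive, with more of the filament protein GFAP.

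Peripherin is the neuronal member with a pair of probes in the coding sequence of one transcript (NM_013639), so its sequences are shown to let both readings of 1 mRNA be compared. The Nos1 probe (NM_008712) is shown because it is the dimmest of the 8 and lies in coding sequence too. Each is 60 bases long, and positions are on mm9 as the array design gives them, on the plus strand. The capitals mark the stop codon of Prph.
Prph, chr15:98889042-98889101: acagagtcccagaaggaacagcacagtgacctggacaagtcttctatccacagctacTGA
Prph, chr15:98887297-98887356: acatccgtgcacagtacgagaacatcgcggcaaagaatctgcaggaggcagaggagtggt
Nos1, chr5:118402831-118402890: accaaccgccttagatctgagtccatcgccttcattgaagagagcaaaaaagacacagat
The chosen probes of the other members lie, on mm9, at chr4:109877455-109877514 (Elavl4), chr6:118101791-118101850 (Ret), chr5:67078408-67078467 (Uchl1), chr10:75723783-75723842 (S100b) and chr15:78985343-78985402 (Sox10). The Vip probe is given as chr10:4699681-4701551, a span longer than the probe.

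Promoters are shown because the neuronal members were lower together in one group, described below. The RefSeq table of GRCm38.p6 held windows of 300 bases, from 250 before to 50 after a start, for 6 of the 8 members (9 windows, of which Elavl4 has 4), with no entry for Ret or Sox10. Vip and Prph are printed for the 120 bases before the start, with TGACGTC and TATAAA in capitals.
Vip, chr10:5639098-5639217, plus strand: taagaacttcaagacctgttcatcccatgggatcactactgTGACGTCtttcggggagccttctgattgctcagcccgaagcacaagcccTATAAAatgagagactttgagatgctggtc
Prph, chr15:99055054-99055173, plus strand: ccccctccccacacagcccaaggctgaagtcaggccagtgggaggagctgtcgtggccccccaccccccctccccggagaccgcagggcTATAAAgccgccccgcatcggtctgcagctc
TGACGTC, the core of the cAMP response element, was found on either strand in 3.21% of all 32851 windows and, among the members, in Vip, at bases -79 to -73 from the start. TATAAA was in 13.6% of windows and in those of Vip, from base -30, and Prph, from base -31. Vip holds it at 2 further places in its window, outside the bases shown. A direct repeat of AGTTCA or of AGGTCA with a spacer of 4 bases, the kind of pair that PXR binds with RXR, was in 0.0122% and 0.0152% of windows and in none of the 9 windows of the members. The single AGTTCA was in 14% of all windows and, of the members, in those of Vip and Elavl4. These are matches of letters within short windows and say nothing of binding. At shares so low, finding no repeat in 9 windows tells nothing about the members. The mice in which they were lower also lack Pxr.

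Between 62.7% and 71.0% of spots were well above background on an array, and no spot was saturated. In 2 pairs of arrays that carry different group labels the arrays were nearly identical: WT PCN 4 with Pxr-/- PCN 2, and WT PCN 3 with Pxr-/- CONT 2. The SD of their log2 differences over 38646 probes was 0.172 and 0.198, against 0.297 to 0.616 for the other 134 pairs, and the largest difference of a member was 0.21 and 0.20, against 0.19 or more in the other pairs (median 0.62), so the pairs stand apart over all probes and not by the members. Values are given with all 17 arrays, and the main differences of the neuronal members also with the 13 that remain. Genes of the pancreas were far higher on 4 arrays than on the rest (mean log2 signal 11.4 to 17.7 on WT CONT 4, WT PCN 1, WT PCN 3 and Pxr-/- CONT 2, against 6.61 to 7.08), and genes of the distal colon ranged from 6.35 to 10.4. Their part in the results was not tested, apart from the values set beside them below.

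In Pxr-/- mice, all 6 neuronal members were lower after PCN than after corn oil, by 0.26 to 0.63 on the log2 scale (1.20- to 1.55-fold). The glial members S100b and Sox10 differed by -0.29 and 0.12, so that S100b fell within the span of the neuronal members. None of the 8 was called by limma at an adjusted p of 0.05 and a fold change of 1.5, against 2 of 38703 probes called over the whole array (0.00517%). At an unadjusted p under 0.05, 6 of 8 members were lower, all of them neuronal, where 3.95% of all probes were. The median over the 8 members was -0.38 and over all probes 0.01. In 3 members (Elavl4, Ret and Nos1) every PCN array lay below every corn oil array, which 1.42% of all probes did. Without the near-identical arrays 5 of 8 members were lower at that p, the neuronal genes other than Vip, where 3.63% of all probes were. Elavl4, Ret and Nos1 again did not overlap, though the share of all probes with that order was not counted over these arrays. In a bulk sample, fewer neurons, less RNA per neuron and a smaller share of the muscle wall cannot be told apart. Smooth muscle genes were lower in the same mice too (median of 10 genes -0.42, described below).

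Ret encodes the receptor through which GDNF acts on enteric neurons and their precursors. Its log2 signal was 8.65, 8.63, 8.67, 8.81 and 8.44 in Pxr-/- CONT 1 to 5, and 7.72, 8.04, 8.04 and 8.33 in Pxr-/- PCN 1 to 4. The PCN arrays lay below all 5 corn oil arrays, and Pxr-/- PCN 1 was the lowest of the 17. In WT mice, Ret read 8.46, 8.13, 8.84 and 8.34 in WT CONT 2 to 5 and 8.51, 8.82, 8.66 and 8.13 in WT PCN 1 to 4, so these groups overlapped over nearly their whole range. The fitted difference in Pxr-/- mice was -0.60 (SE 0.16, 95% interval -0.95 to -0.26, unadjusted p = 0.0021, limma adjusted p = 0.400), or 1.52-fold lower.

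Uchl1 encodes an abundant ubiquitin hydrolase of neurons, known as PGP9.5. Its signal was 13.05, 13.23, 12.97, 13.39 and 12.67 in Pxr-/- CONT 1 to 5 against 12.11, 12.56, 12.15 and 12.86 in Pxr-/- PCN 1 to 4, where only array 4 reached into the corn oil range. WT CONT 2 to 5 gave 13.08, 12.53, 13.35 and 12.95, and WT PCN 1 to 4 gave 13.03, 13.32, 13.03 and 12.62. Uchl1 had the largest difference of the 8 in Pxr-/- mice, -0.63 (SE 0.20, interval -1.07 to -0.20, unadjusted p = 0.0071, limma adjusted p = 0.504).

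Prph, which encodes the neuronal intermediate filament peripherin, read 10.11, 9.99, 9.99, 10.28 and 9.80 in Pxr-/- CONT 1 to 5 and 9.24, 9.74, 9.11 and 9.84 in Pxr-/- PCN 1 to 4. Arrays 1 and 3 were far below the corn oil mice and array 4 lay just inside their range. In WT CONT 2 to 5 it was 9.82, 9.62, 10.30 and 9.61, and in WT PCN 1 to 4 it was 10.03, 10.43, 10.18 and 9.63. The difference in Pxr-/- mice was -0.55 (SE 0.19, unadjusted p = 0.013, limma adjusted p = 0.566), and the second probe printed above, further upstream in the same transcript, gave -0.51 (unadjusted p = 0.031).

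Elavl4 encodes HuD, an RNA-binding protein of neurons that is a standard marker of their cell bodies. It read 8.5, 8.30, 8.27, 8.41 and 8.14 in Pxr-/- CONT 1 to 5 and 7.94, 8.11, 7.73 and 7.95 in Pxr-/- PCN 1 to 4, with no overlap, though array 2 came within 0.03 of the lowest corn oil array. WT CONT 2 to 5 gave 8.18, 7.98, 8.32 and 8.31, and WT PCN 1 to 4 gave 8.02, 8.45, 8.33 and 8.11. The difference was -0.39 (SE 0.11, unadjusted p = 0.0032, limma adjusted p = 0.428). Of the other 2 Elavl4 probes, one was lower by a like amount (-0.46, unadjusted p = 0.014), while one for another transcript, above background on 13 arrays, gave -0.09.

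Vip and Nos1 mark the inhibitory motor neurons: Vip encodes vasoactive intestinal peptide and Nos1 the neuronal nitric oxide synthase. Vip read 10.54, 10.43, 10.06, 11.05 and 10.29 in Pxr-/- CONT 1 to 5 and 10.07, 10.23, 10.17 and 10.00 in Pxr-/- PCN 1 to 4, where the corn oil mice spread widely and array 3 lay as low as the PCN mice. WT CONT 2 to 5 gave 10.69, 10.29, 10.53 and 10.56, and WT PCN 1 to 4 gave 10.72, 10.69, 10.54 and 10.33. The Vip difference in Pxr-/- mice was -0.36 (SE 0.16, unadjusted p = 0.040, limma adjusted p = 0.653), and without the near-identical arrays it was -0.40 with an unadjusted p of 0.071. Nos1 was dim and read well above background on 15 of 17 arrays, all but WT CONT 3 and Pxr-/- PCN 3, and a probe near background understates differences. It gave 5.79, 5.94, 6.01, 6.14 and 5.98 in Pxr-/- CONT 1 to 5, and 5.75, 5.76, 5.57 and 5.78 in Pxr-/- PCN 1 to 4. The highest PCN array was just below the lowest corn oil array. In WT CONT 2 to 5 Nos1 read 5.77, 5.59, 5.88 and 5.74, and in WT PCN 1 to 4 it read 5.6, 5.95, 5.98 and 5.97. The difference in Pxr-/- mice was -0.26 (SE 0.09, unadjusted p = 0.014, limma adjusted p = 0.571), and a second probe, above background on 11 arrays, gave -0.12.

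Pxr-/- PCN was not the lowest group by mean for S100b or Sox10, though for S100b WT CONT was only 0.04 lower. S100b read 9.10, 9.20, 9.43, 9.38 and 8.97 in Pxr-/- CONT 1 to 5 and 8.74, 8.98, 8.72 and 9.29 in Pxr-/- PCN 1 to 4. It was 8.70, 8.77, 9.33 and 8.78 in WT CONT 2 to 5, and 8.73, 9.19, 9.23 and 8.91 in WT PCN 1 to 4, so that the highest group was Pxr-/- CONT and the other groups overlapped. Its difference was -0.29 (interval -0.63 to 0.06, limma adjusted p = 0.751). Sox10 read 8.18, 8.15, 8.40, 8.51 and 8.16 in Pxr-/- CONT 1 to 5, and 7.96, 8.64, 8.09 and 8.93 in Pxr-/- PCN 1 to 4. Both the lowest and the highest Sox10 value of the 17 arrays were in Pxr-/- PCN. WT CONT 2 to 5 gave 8.04, 8.17, 8.61 and 8.34, and WT PCN 1 to 4 gave 8.25, 8.85, 8.29 and 8.64. The Sox10 difference was 0.12 (interval -0.30 to 0.54, limma adjusted p = 0.944), an interval whose lower bound is short of the differences of 5 of the 6 neuronal members, though the gap between Sox10 and these genes was not tested.

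**Figure D1:**
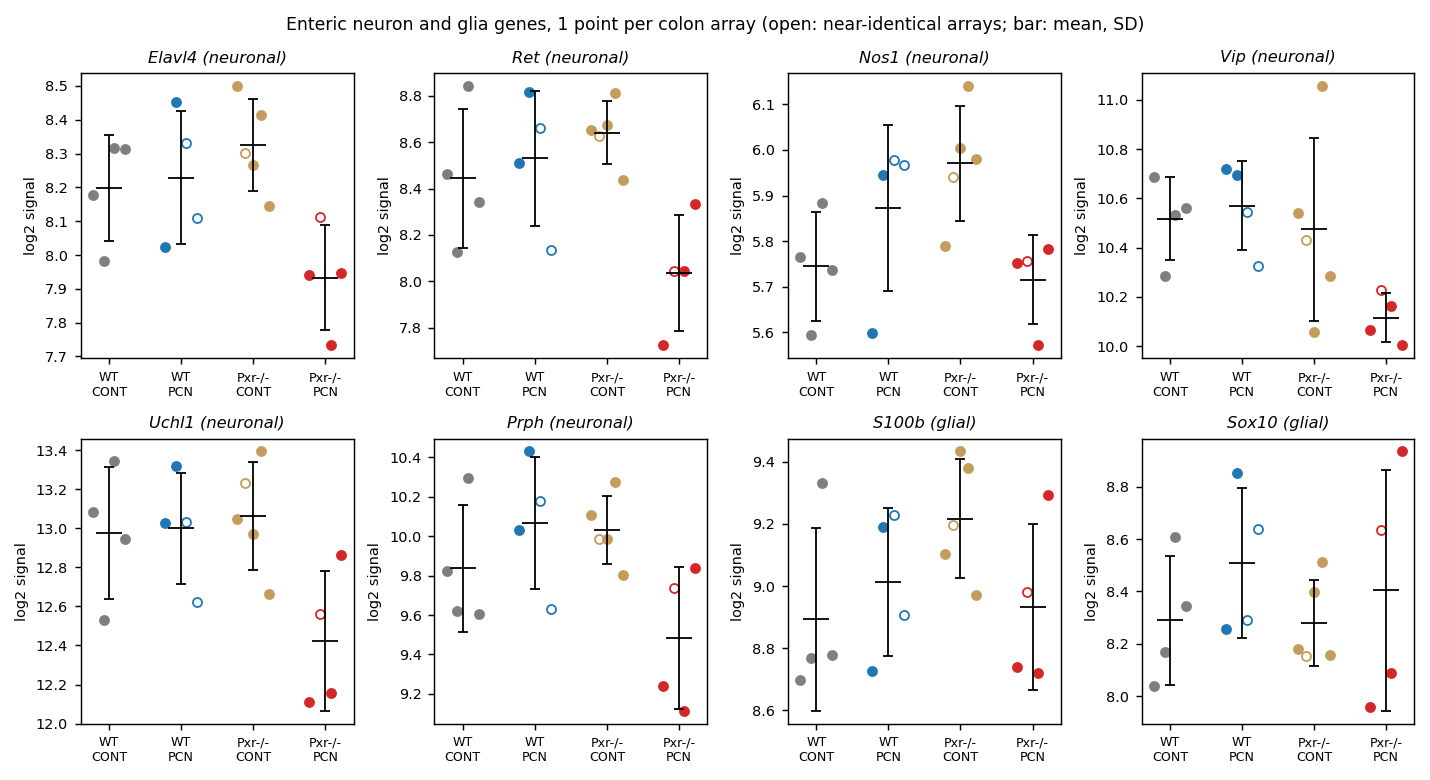
Log2 signal of the 6 neuronal and 2 glial genes (y axis, one scale per panel) on each of the 17 colon arrays, by group. Points are arrays, open points the 4 near-identical arrays, and bars the group mean with its SD (n = 4, or 5 for Pxr-/- CONT). The Pxr-/- PCN mean is the lowest of the 4 groups for every neuronal gene and for neither glial gene.

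Ordered by mean, Pxr-/- PCN was the lowest group for all 6 neuronal members. The step to the next group was larger than the SD within groups for 5 of them (Uchl1, 0.55 against an SD of 0.31; Ret, 0.41 against 0.25; Vip, 0.36 against 0.24; Prph, 0.35 against 0.30; Elavl4, 0.26 against 0.16) and smaller for Nos1 (0.03 against 0.13). All other steps between neighbouring groups were within 1 SD, for the glial members too. Without the near-identical arrays the PCN difference in Pxr-/- mice was -0.47 for Elavl4, -0.61 for Ret, -0.27 for Nos1, -0.65 for Uchl1 and -0.65 for Prph, and 0.01 for Sox10. Within wash bath 1, which held 2 arrays of each Pxr-/- group, the neuronal differences ran from -0.82 (Uchl1) to -0.36 (Vip, limma unadjusted p = 0.269). Within wash bath 2, with 3 corn oil and 2 PCN arrays, they ran from -0.54 (Ret) to -0.14 (Nos1). S100b differed by -0.56 in bath 1 (unadjusted p = 0.0046), within the span of the neuronal members, and by -0.075 in bath 2.

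In WT mice the PCN and corn oil arrays lay at about the same level. The 6 neuronal members differed by 0.03 (Elavl4) to 0.24 (Prph) and the 2 glial members by 0.11 and 0.21, each with a 95% interval that spans 0. The lower bounds of the intervals were -0.28 for Ret, -0.42 for Uchl1, -0.21 for Prph and -0.22 for Elavl4, each short of the difference fitted for that gene in Pxr-/- mice. No member was called and none had an unadjusted p under 0.05 with limma, against 0% called and 4.66% of all probes at that p. Without the near-identical arrays, which leave 2 WT PCN arrays, the neuronal differences were 0.03 to 0.39. Within wash bath 1 they were 0.03 (Vip) to 0.36 (Prph), and within bath 2, with a single WT PCN array, -0.29 (Elavl4) to 0.17 (Vip). In bath 1, Nos1 (0.28), S100b (0.38) and Sox10 (0.49) were higher after PCN at an unadjusted p under 0.05, and in bath 2 these genes differed by -0.21, -0.33 and -0.22. The Elavl4 probe for another transcript differed by 0.76 in WT mice (unadjusted p = 0.045, limma adjusted p = 0.956).

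The interaction, which asks whether the response to PCN differed with the genotype, was negative for all 8 members. It was -0.69 for Ret, -0.78 for Prph, -0.67 for Uchl1, -0.42 for Elavl4 and -0.37 for Nos1 (unadjusted p = 0.010 to 0.038), -0.41 for Vip (unadjusted p = 0.0998), -0.40 for S100b and -0.09 for Sox10. Without the near-identical arrays it was -1.05 for Prph, -0.85 for Uchl1, -0.83 for Ret, -0.50 for Elavl4, -0.59 for Vip and -0.30 for Nos1, with an unadjusted p under 0.05 for 4 members and 0.122 for Nos1. Of all probes, 1.84% were lower at an unadjusted p under 0.05 in that fit. The interaction of Uchl1 kept an unadjusted p under 0.05 in 8 of the 17 fits that left out 1 array. None was called (limma adjusted p = 0.848 for all but Sox10), as for 0% of all probes, and 5 of 8 members were lower at an unadjusted p under 0.05, where 2.95% of probes were. Within wash bath 1 the interaction of the neuronal members ran from -1.06 (Prph) to -0.39 (Vip), with -0.93 for S100b, and within bath 2 from -0.56 (Vip) to 0.07 (Nos1), with 0.25 for S100b. This contrast uses the same Pxr-/- arrays as the one above.

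Between the genotypes under PCN, Pxr-/- mice were lower than WT mice in all 8 members. The difference was -0.59 for Prph, -0.59 for Uchl1, -0.50 for Ret, -0.45 for Vip and -0.30 for Elavl4 (unadjusted p = 0.012 to 0.025), and -0.14, -0.10 and -0.07 for Nos1, Sox10 and S100b. No member was called, as for 0% of probes, and 5 of 8 were lower at an unadjusted p under 0.05 against 1.85% of all probes. Over 17 arrays Vip was the member for which every Pxr-/- PCN array lay below every WT PCN array, which 0.723% of probes did. The arrays WT PCN 4 and Pxr-/- PCN 2, which were nearly identical, lie on either side of this contrast. Without the 4 near-identical arrays the differences of Prph, Uchl1, Ret and Vip were -0.84, -0.80, -0.63 and -0.62, and that of Elavl4 was -0.37. This fit rests on 3 Pxr-/- PCN arrays and 2 WT PCN arrays. Within wash baths 1 and 2 the differences were -0.37 and -0.08 for Elavl4 and -0.65 and -0.49 (Prph), -0.63 and -0.54 (Uchl1), -0.49 and -0.48 (Ret) and -0.32 and -0.68 (Vip), while Nos1 (-0.30 and 0.17) and both glial genes turned from lower to higher. Without PCN, the genotypes differed by -0.04 (Vip) to 0.33 (S100b). Nos1, 0.23 higher in Pxr-/- mice, was the member with an unadjusted p under 0.05 (limma adjusted p = 0.343). That is 1 of 8, where 12.7% of all probes passed in either direction, and no member and 0% of probes were called.

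**Figure D2:**
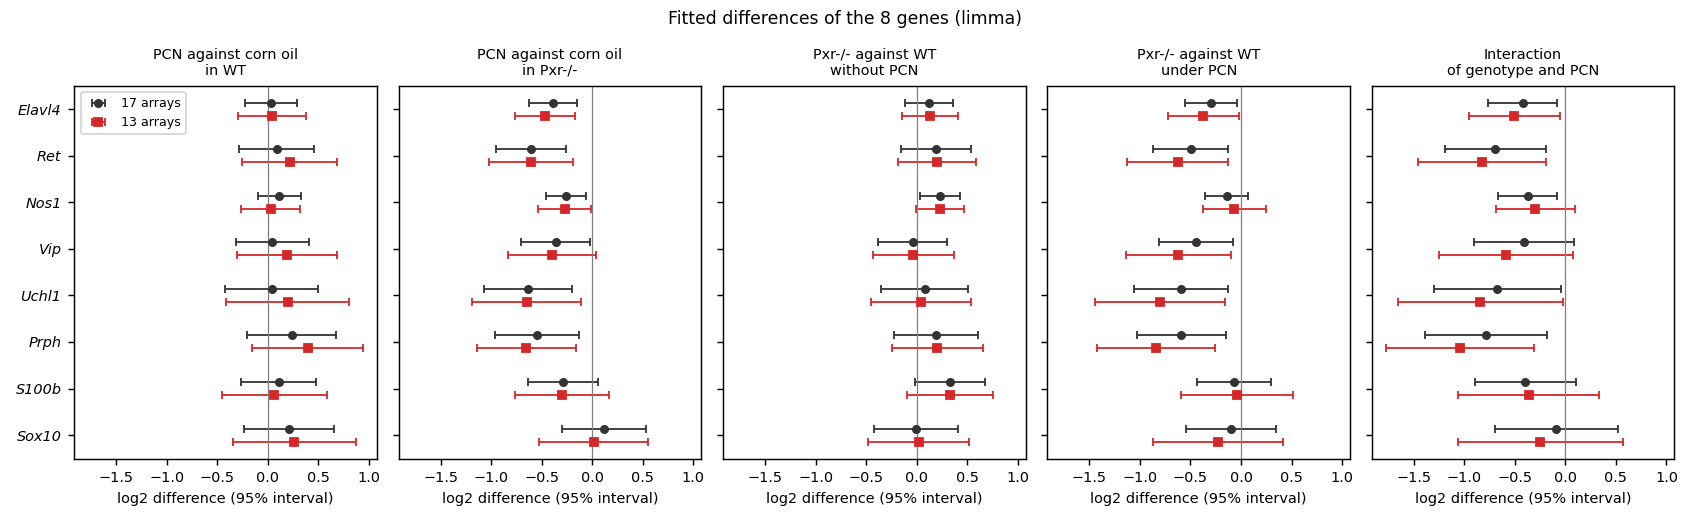
Fitted log2 difference of each member (x axis) with its 95% interval in the 5 contrasts, with 17 arrays (circles) and without the 4 near-identical arrays (squares). The neuronal genes lie below 0 for PCN in Pxr-/- mice (-0.63 to -0.26 with 17 arrays) and near or above 0 for PCN in WT mice (0.03 to 0.24).

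The mean of the 6 neuronal members per array was 9.29 ± 0.21 (SD, n = 4) in WT CONT, 9.38 ± 0.20 (n = 4) in WT PCN, 9.42 ± 0.17 (n = 5) in Pxr-/- CONT and 8.95 ± 0.17 (n = 4) in Pxr-/- PCN. The mean of the 2 glial members was 8.59 ± 0.26, 8.76 ± 0.22, 8.75 ± 0.17 and 8.67 ± 0.36 in the same order. Their difference within an array was 0.46, 0.27, 0.39 and 0.01 in Pxr-/- PCN 1 to 4 and 0.36 to 0.97 on the other 13 arrays. Pxr-/- PCN thus held the lowest values, with WT PCN 4 (0.36) and Pxr-/- CONT 3 (0.41) inside its range. The lowest, Pxr-/- PCN 4, combined a neuronal mean of 9.13 with the highest glial mean of all arrays, 9.11. No test was run on these means, since the members were chosen with results of these arrays known.

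Over the 17 arrays the neuronal members followed each other closely. Pearson's r was 0.94 for Ret with Uchl1, 0.92 for Ret with Prph and 0.92 for Uchl1 with Prph, while Nos1 and Vip were the least alike (0.29). Vip was also unrelated to the glial mean (0.07), which the other neuronal members followed at 0.45 to 0.66. The neuronal mean and the glial mean had an r of 0.55 over all arrays, 0.62 over 13 arrays and 0.70 once group means were removed. These are descriptions, as all points share the same arrays and groups.

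Smooth muscle genes were lower in the same mice. These are the contractile genes of the muscle coats between which the myenteric plexus lies. All 10 were lower after PCN in Pxr-/- mice (median -0.42, range -0.83 to -0.16) and 7 had an unadjusted p under 0.05 (5 without the near-identical arrays), with none called. Of all probes, 3.95% were lower at that p (3.63% without the near-identical arrays). The mean of the smooth muscle genes per array was 13.69 to 14.18 in Pxr-/- PCN, 13.99 to 14.60 in Pxr-/- CONT, 13.90 to 14.58 in WT CONT and 13.97 to 14.47 in WT PCN. The neuronal mean followed it with an r of 0.80 (0.86 over 13 arrays, 0.68 within groups). Taken relative to smooth muscle, the neuronal mean was -4.82 ± 0.19 in WT CONT (SD, n = 4), -4.86 ± 0.20 (n = 4) in WT PCN, -4.87 ± 0.19 (n = 5) in Pxr-/- CONT and -4.91 ± 0.16 (n = 4) in Pxr-/- PCN. The gap between the Pxr-/- groups was then -0.04, less than the SD within groups, where it was -0.47 before. Colon epithelium genes did not share the shift (median of 12 genes -0.04, none with an unadjusted p under 0.05). Whether these samples held less of the outer wall was not tested.

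Position along the colon was another measure that varied between arrays. The 5 distal colon genes, the posterior Hox genes, had a mean of 6.35 on Pxr-/- PCN 4, the lowest of all, and 10.4 on Pxr-/- PCN 3, the highest. The glial mean was lower where they were higher, with an r of -0.85 (-0.87 over 13 arrays, -0.86 within groups), while the neuronal mean followed them at -0.44 (-0.69 within groups). The part of this measure in the group differences was not tested. Adipocyte genes followed the neuronal ones in part over the arrays, but not after PCN in WT mice. In Pxr-/- mice 5 of 6 were lower after PCN (median -0.79, none at an unadjusted p under 0.05), with a mean per array of 7.08 to 8.35 after PCN and 8.19 to 9.85 after corn oil. In WT mice, where the neuronal members lay level, 5 of 6 were lower too (median -1.43, 4 at that p, where 2.17% of all probes were lower). Their r with the neuronal mean was 0.54 (0.60 over 13 arrays, 0.58 within groups), with 0.60 for Vip and 0.57 for Uchl1, and their part was not tested. Genes of the pancreas, which stood out on 4 arrays, were at 6.61 to 7.08 on all 4 Pxr-/- PCN arrays, and their r with the neuronal mean was 0.39 (0.28 over 13 arrays).

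**Figure D3:**
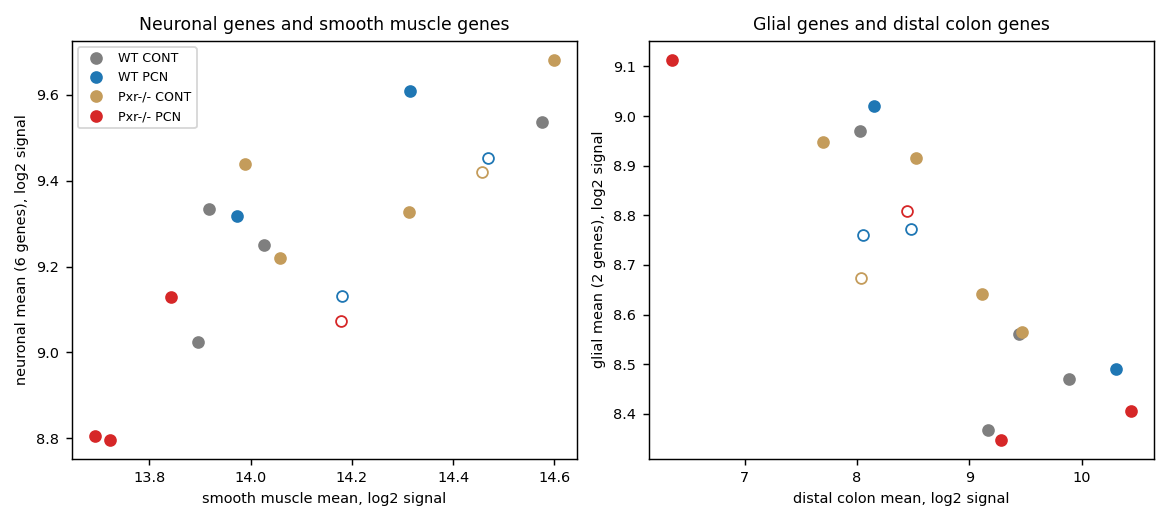
Left, mean log2 signal of the 6 neuronal members against that of 10 smooth muscle genes. Right, mean of the 2 glial members against that of 5 distal colon genes. Points are the 17 arrays, coloured by group, with the 4 near-identical arrays open. Both Pxr-/- PCN arrays with a neuronal mean of 8.81 and 8.80 have the lowest smooth muscle means, and Pxr-/- PCN 4 joins the highest glial mean (9.11) with the lowest distal colon mean (6.35).

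Other neuronal genes of the gut were lower too. Of 36 on a list made with earlier results of these data known, 34 were tested (Calb1 and Chrna3 were too dim). After PCN in Pxr-/- mice 29 were lower and 5 higher, with 13 lower and none higher at an unadjusted p under 0.05, none called, and a median of -0.35. Of all probes, 48.0% were lower in that contrast, and 3.95% were lower at that p. In WT mice 8 of the 34 genes were lower and 26 higher, with a median of 0.12. The genes with the smallest unadjusted p were Slc5a7, the choline transporter of cholinergic neurons (-0.59), Grp, which encodes gastrin-releasing peptide (-1.15), the synaptic vesicle protein gene Syt1 (-0.56) and Scg2, a granin of dense-core vesicles (-0.65), with limma adjusted p values of 0.418 to 0.476. Slc5a7 read 6.17, 6.93, 6.90 and 6.93 in Pxr-/- PCN 1 to 4, and of the 13 arrays of the other groups WT CONT 3 alone (6.76) lay within that range, the rest above it. Grp read 8.35, 9.56, 8.19 and 8.97 there and 9.42 to 10.4 in Pxr-/- CONT, so that array 2, the near twin of WT PCN 4 (9.55), lay inside the corn oil range. Without the 4 near-identical arrays, 29 of the 34 were again lower, 10 with an unadjusted p under 0.05, where 3.63% of all probes were lower at that p.

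The other glial genes showed no common direction in Pxr-/- mice. Of 14, 7 were lower and 7 higher after PCN, with a median of 0.01. Gfap, the filament gene of reactive glia, was higher and Ngfr, which encodes the neurotrophin receptor p75, was lower at an unadjusted p under 0.05. That is 1 of 14 in each direction, where 3.95% of all probes were lower and 3.40% higher at that p. Both genes were named for their small unadjusted p in this contrast, and neither was called. Gfap read 6.45, 7.09, 6.66, 6.65 and 6.12 in Pxr-/- CONT 1 to 5 and 6.83, 7.65, 7.12 and 8.03 in Pxr-/- PCN 1 to 4. In WT mice it read 6.16, 6.25, 6.78 and 6.29 in WT CONT 2 to 5 and 7.08, 7.66, 6.68 and 7.54 in WT PCN 1 to 4. In each genotype 1 PCN array lay below the highest corn oil array. The difference was 0.82 in Pxr-/- mice (SE 0.26, unadjusted p = 0.0077, limma adjusted p = 0.514) and 0.88 in WT mice (SE 0.28, unadjusted p = 0.0075, limma adjusted p = 0.956), and the interaction was -0.06 (SE 0.38). Without the near-identical arrays the Gfap differences were 0.87 and 1.00. Ngfr was lower by 0.39 in Pxr-/- mice (limma adjusted p = 0.433) and differed by -0.09 in WT mice. Entpd2, an ectonucleotidase of enteric glia, and Kcnj10, a potassium channel gene, differed by 0.17 and -0.21 in Pxr-/- mice.

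Among 13 genes for signals to the enteric nervous system, 8 were lower and 5 higher after PCN in Pxr-/- mice (median -0.07), 2 lower and 1 higher at an unadjusted p under 0.05. Of all probes, 3.95% were lower and 3.40% higher at that p. Ntf3, which encodes the growth factor neurotrophin-3, read 8.45, 8.08, 8.51, 8.16 and 8.22 in Pxr-/- CONT 1 to 5 and 7.95, 8.0, 7.90 and 7.73 in Pxr-/- PCN 1 to 4. In WT mice it read 8.09, 8.16, 7.99 and 8.27 in WT CONT 2 to 5 and 7.89, 7.97, 7.93 and 7.83 in WT PCN 1 to 4. In both genotypes every PCN array was below every corn oil array. Of all probes, 1.42% had that order in Pxr-/- mice and 1.29% in WT mice, and the share with it in both was not counted. Ntf3 was named for its small unadjusted p in Pxr-/- mice. The difference was -0.40 in Pxr-/- mice (SE 0.09, unadjusted p = 7.5e-04, limma adjusted p = 0.331) and -0.24 in WT mice (SE 0.10, unadjusted p = 0.032, limma adjusted p = 0.956), and the interaction was -0.16 (unadjusted p = 0.260). Without the near-identical arrays the Ntf3 differences were -0.47 and -0.20, the latter with an unadjusted p of 0.144. Ntrk3, which encodes the receptor of neurotrophin-3, differed by -0.42, Artn, a ligand of the GDNF family, by 0.32, and Ednrb, the endothelin receptor that enteric precursors need, by 0.26 in Pxr-/- mice. The 4 tested genes of the interstitial cells of Cajal, the pacemaker cells of the muscle coats, were all lower without any at an unadjusted p under 0.05 (Etv1 -0.21, Kit -0.21, Ano1 -0.13 and Thbs4 -0.08, SE 0.18 to 0.52). Of all probes, 48.0% were lower. The 4 genes were not alike over arrays: on Pxr-/- PCN 3 and 4, Kit read 10.78 and 12.75, and Ano1 14.39 and 12.70.

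**Figure D4:**
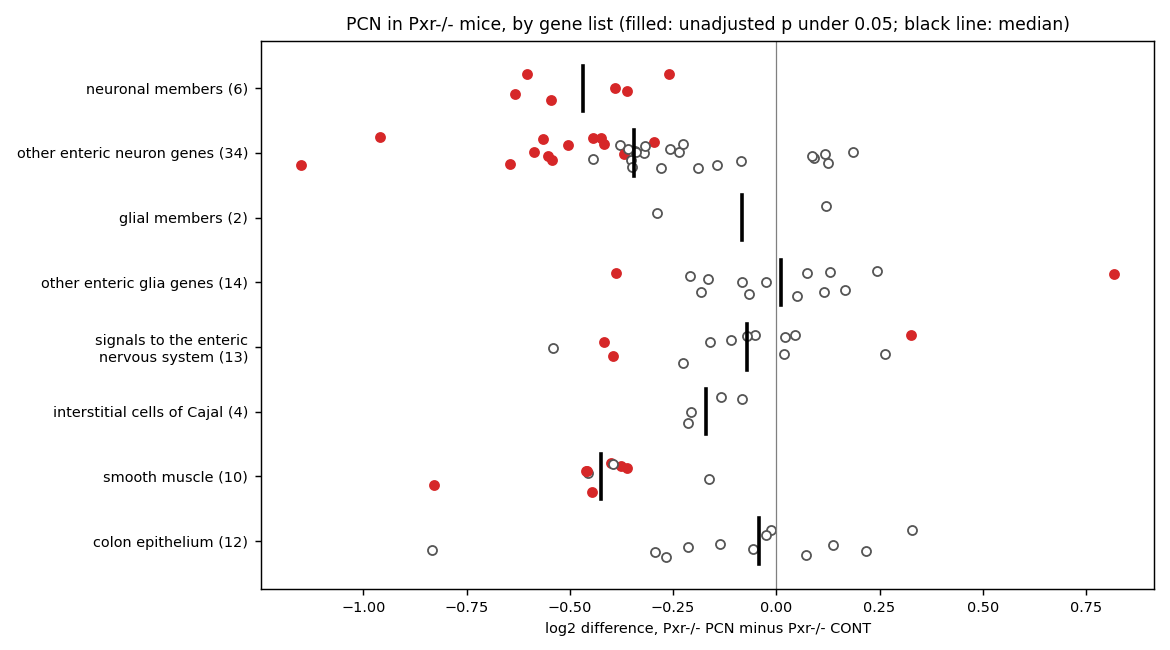
Fitted log2 difference of PCN against corn oil in Pxr-/- mice (x axis) for each tested gene of 8 lists, with the number of genes in brackets. Filled points have an unadjusted p under 0.05, and black lines are list medians. The neuronal members (median -0.47), the other neuronal genes (-0.35) and the smooth muscle genes (-0.42) lie to the left, and the other glial genes (0.01) and the epithelium (-0.04) around 0.

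**Figure D5:**
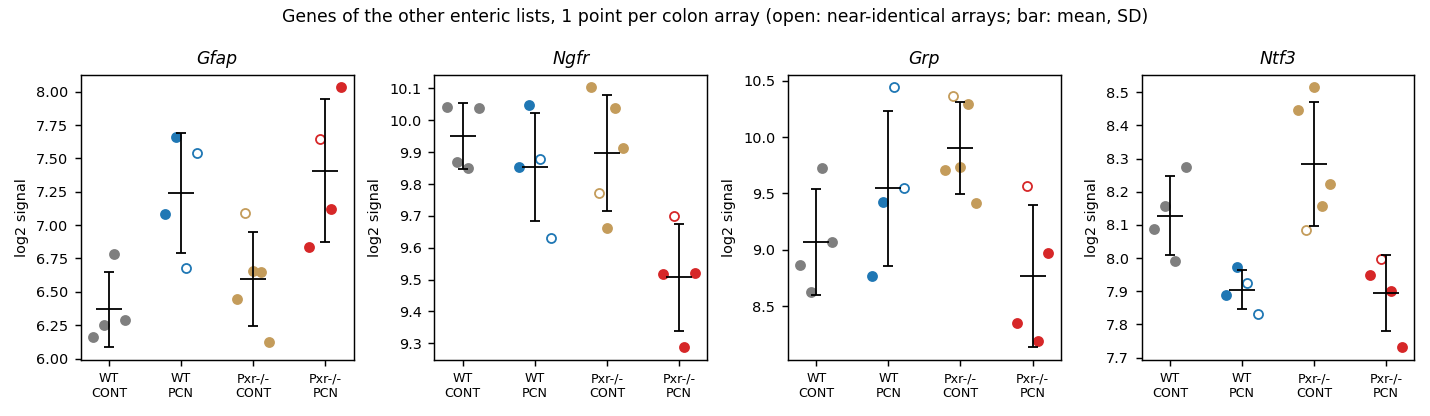
Log2 signal (y axis) of Gfap, Ngfr, Grp and Ntf3 on each array, by group. Open points are the 4 near-identical arrays and bars the group mean with its SD. Gfap is higher and Ntf3 lower after PCN in both genotypes (Gfap by 0.88 in WT and 0.82 in Pxr-/- mice; Ntf3 by -0.24 and -0.40), and Grp and Ngfr are lowest in Pxr-/- PCN. These genes were named for a small unadjusted p in Pxr-/- mice, and none was called.

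The genes whose pattern over the 17 arrays was most like the mean of the neuronal members were Kif5a (r = 0.97), Nsg1 (0.96), Gng3 (0.96), Nsg2 (0.96), Rtn1 (0.96), Sncg (0.95), Rab9b (0.94), Pcsk2 (0.94), Stmn2 (0.94) and Stmn3 (0.94). Over 13 arrays their r was 0.94 to 0.97. Kif5a encodes a kinesin motor of axons, Sncg a synuclein, Pcsk2 a protease that matures neuropeptides, and Stmn2 and Stmn3 bind tubulin. These 10 genes differed by -0.64 to -0.42 after PCN in Pxr-/- mice. A drop of this kind follows from choosing them by likeness to the neuronal mean, so it adds no separate result. The 5 genes most like the glial mean were Nbea (0.95), Snhg11 (0.94), D430004P15Rik (0.94), Ptprs (0.94) and Dpysl4 (0.93), and they differed by -0.19 to -0.10. They too were chosen by likeness, so their differences add no separate result, and whether they are glial genes was not tested.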

How the data were processed

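The 17 arrays were grouped by the submitters' labels. Cy3-labelled colon RNA was hybridized to Agilent arrays of 1 colour, and the authors deposited spot intensity values from Agilent Feature Extraction 10.10.1.1 (per the submitters' processing notes). They also deposited normalized log2 values, used to choose probes and as an alternative. The article's methods are stated for liver arrays and served as a guide. Here, log2 of the median intensity was taken without outlier spots, arrays were quantile-normalized, spots of a probe were averaged (56605 probes), and 38703 probes well above background on at least 4 arrays were tested with limma 3.58.1 in R 4.3.3, with the 4 groups and the wash bath as terms. The 5 contrasts were adjusted by Benjamini-Hochberg over all probes, and a call required a fold change above 1.5 with an adjusted p no higher than 0.05. Replicates were taken as separate mice of a group, as in the article, and p-values measure the spread between these arrays. The number of arrays limits the precision. Named genes were the 8 members, every called gene of the lists (none), the 4 genes of smallest unadjusted p per enteric list and the 10 and 5 genes most alike. Members and lists were chosen with earlier results of these data known. Alternatives changed the background correction, scaling, filter, covariates, probe choice and arrays. Replicate numbers were not taken as pairing the arrays. The fit was tested on simulated data.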

Additional observations from a re-analysis of the deposited data

Results flagged for a closer look

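Of 48 sets of arrays screened (12 measures in 4 groups), 4 held an array far from the others of its group, where chance gives about 1 in 20. Nos1 read 5.6 on WT PCN 1, against 5.95 to 5.98 on the other WT PCN arrays, and 5.57 on Pxr-/- PCN 3, against 5.75 to 5.78, a level not well above background there. S100b read 9.33 on WT CONT 4, against 8.70 to 8.78 on the other WT CONT arrays. WT CONT 4 is also the array with the highest level of pancreas genes (17.7), whose part was not tested. The mean of the other enteric glia genes was 8.41 on Pxr-/- PCN 4, where the other 3 arrays of the group lay at 8.08 to 8.13. That array had the lowest mean of distal colon genes (6.35).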

How the results depend on the processing

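No member was called under the 17 alternatives that left out 1 array each or under 18 others. In the remaining one, which asked for a signal above background on all arrays, Nos1 was not measured and none of the other 7 passed the threshold. In contrast, probes called over the whole array moved widely. For PCN in Pxr-/- mice 2 were called, against 0 with processed signals, normexp, no filter on dim probes, either slide block, the replicate block, without Pxr-/- CONT 2 and Pxr-/- PCN 2 or within a wash bath, 1 without the bath term, 20 with the 2 Pxr-/- groups alone or without the 4 near-identical arrays, 29 without WT PCN 3 and 4, and 0 to 26 when 1 array was left out (26 without WT PCN 3, 4 without WT PCN 4). For PCN in WT mice 0 became 1 with array weights, 19 without the 4 arrays, 39 without WT PCN 3 and 4, 18 within bath 2 and 0 to 18 leaving out 1 array (18 without WT PCN 3). Between genotypes without PCN 0 became 521 with array weights, 8 with those groups alone, 2 without WT PCN 3 and 4 and 0 to 2 leaving out 1 array (2 without WT PCN 1, 1 without Pxr-/- CONT 2). Under PCN 0 became 8 without the 4 arrays, 15 without WT PCN 3 and 4 and 8 within bath 2. The interaction went from 0 to 1, 3 and 1 in these settings and from 0 to 1 leaving out 1 array (1 without WT PCN 4). The cause was not tested.

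For PCN in Pxr-/- mice the 6 neuronal members were lower under every alternative that gave them a value (Nos1 had none where a probe had to be above background on all arrays): Elavl4 by -0.47 to -0.30, Ret -0.71 to -0.48, Nos1 -0.54 to -0.14, Vip -0.49 to -0.19, Uchl1 -0.82 to -0.50 and Prph -0.71 to -0.42. Vip lost its unadjusted p under 0.05 in 6 of the 17 settings that left out 1 array, Prph in 2 and Nos1 in 1, and so did Elavl4 and Nos1 with the mean over the probes of a gene. Over the 19 other settings, Vip kept it in 13, Elavl4, Uchl1 and Prph in 18 each, and Ret in 19. Nos1 kept it in 16 of the 18 that measured it. For the interaction, Uchl1 lost it in 9 of 17 and Elavl4 in 2. Sox10 turned to -0.093 within bath 1 and ran from -0.090 to 0.28 leaving out 1 array.

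Signs turned mostly for differences near 0. For PCN in WT mice, Vip was -0.067 and Uchl1 -0.076 with array weights, and within bath 2, which holds 1 WT PCN array, Elavl4 was -0.29, Ret -0.083, Nos1 -0.21, Uchl1 -0.12, S100b -0.33, Sox10 -0.22, the member median -0.16 and the neuronal minus glial difference 0.20. Leaving out 1 array gave -0.055 to 0.13 for Elavl4, -0.054 to 0.13 for Vip, -0.038 to 0.21 for Ret and -0.13 to 0.15 for Uchl1. Between genotypes without PCN, Sox10 was 0.0067 with normexp, 0.00056 with slide as random block, 0.10 with array weights, 0.022 without the 4 arrays or without Pxr-/- CONT 2 and Pxr-/- PCN 2, 0.35 within bath 1 and -0.10 to 0.12 leaving out 1 array. Vip was 0.070 and the median 0.38 within bath 1. Elavl4 was -0.043 with slide as fixed block and -0.00019 within bath 2, where Ret was -0.021 and Uchl1 -0.16. Leaving out 1 array gave -0.21 to 0.093 for Vip and -0.063 to 0.21 for Uchl1. Under PCN, S100b was 0.0094 with slide as fixed block, and within bath 2 Nos1 was 0.17, S100b 0.29, Sox10 0.19 and neuronal minus glial -0.59. Leaving out 1 array gave -0.19 to 0.027 for S100b and -0.27 to 0.042 for Sox10. The interaction of neuronal minus glial was -0.10 with array weights, -0.031 within bath 1 and -0.70 within bath 2, the median -0.81 within bath 1, and within bath 2 Nos1 was 0.075, S100b 0.25 and Sox10 0.50, with -0.27 to 0.055 for Sox10 leaving out 1 array. The within-bath fits were chosen after seeing the data.

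Deviations of arrays with the same replicate number had an r of -0.33 to 0.49 over 22 pairs (median 0.10, over 0.1 in 11), against a median of -0.05 over 86 pairs with other numbers (over 0.1 in 30). Not every pair was over 0.1, so the numbers were not taken as pairing, though this rule cannot exclude it. With the replicate number as a block, Ret was -0.64 and Uchl1 -0.69 for PCN in Pxr-/- mice, Vip was -0.047 for PCN in WT mice, Sox10 was 0.058 between genotypes without PCN, and no member was called. Nos1 lies near background, which limits what its differences can show.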
